A study of Homo sapiens with 21 samples.

Results

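Amino acids enter and leave cells through transporters of the solute carrier (SLC) families, and 9 of these genes are described here in a lung cancer cell line under kinase inhibitors. The genes SLC7A5, SLC3A2, SLC7A1, SLC1A4, SLC1A5, SLC38A1, SLC38A2, SLC6A9 and SLC36A1, all protein-coding, were taken by symbol from an RNA-seq table of 34021 genes. All 9 were found, and 8 of them were among the 13775 genes tested, which reached 1 FPKM in at least 3 libraries. FPKM scales the fragments counted at a gene to its length and to the size of the library, so levels are given per length and as a share of the library. SLC1A4 lay under that filter.

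SLC7A5 (LAT1) exchanges large neutral amino acids such as leucine across the plasma membrane, as a disulfide-linked heterodimer with the glycoprotein SLC3A2 (CD98 heavy chain). SLC7A1 (CAT1) imports arginine and lysine. SLC1A4 (ASCT1) and SLC1A5 (ASCT2) exchange small neutral amino acids, and ASCT2 is a main route for glutamine. SLC38A1 (SNAT1) and SLC38A2 (SNAT2) import glutamine, alanine and other neutral amino acids with sodium, SLC6A9 (GLYT1) imports glycine with sodium and chloride, and SLC36A1 (PAT1) moves small amino acids with protons, on lysosomes among other membranes. Imported leucine and arginine feed the sensors of mTORC1, a kinase complex that drives growth. Several of these genes are known targets of ATF4, the transcription factor of the amino acid response, and of MYC.

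H1975, an established human lung adenocarcinoma line with mutated EGFR, was cultured for 8 days in 3 groups of 3 libraries. OC cells received 500 nM osimertinib, an inhibitor of mutant EGFR, and overexpressed cIGF1R, a circular RNA of the IGF1R gene. OL+EV cells received 500 nM osimertinib and 500 nM linsitinib, an inhibitor of the IGF1R and insulin receptor kinases, with EV, which the labels do not spell out. DMSO+EV cells received the vehicle DMSO with EV. OC and OL+EV therefore shared osimertinib and differed in both linsitinib and cIGF1R, whose parts cannot be told apart. Against DMSO+EV, OC differed in osimertinib and cIGF1R, and OL+EV in both inhibitors, and these parts cannot be told apart either. A group with osimertinib and EV alone was not analysed here. Nothing in the labels says that these came from separate cultures, so p-values measure the spread between libraries, which may be technical. All groups are of a single cell line, and less RNA of a gene per cell and more RNA of other genes cannot be told apart in these shares.

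Across the whole table, FPKM summed to 338034 to 381311 in OC libraries, 423319 to 432563 in OL+EV libraries and 429553 to 474156 in DMSO+EV libraries. The 15 genes of mitochondrial DNA summed to 20100 to 22000 FPKM in OC libraries, 79000 to 101000 in OL+EV libraries and 78600 to 131000 in DMSO+EV libraries, and their part in the results below was not tested beyond the rescalings named there. The level of IGF1R, the gene that cIGF1R comes from, was 88.2 ± 11.0 FPKM in OC cells, 3.90 ± 0.445 FPKM in OL+EV cells and 4.13 ± 0.336 FPKM in DMSO+EV cells (SD, n = 3). Reads of the overexpressed cIGF1R may count toward this gene, so the receptor mRNA and cIGF1R cannot be told apart in it. The 6 epithelial markers summed to 12400 to 15200 FPKM in OC, 13200 to 14400 FPKM in OL+EV and 11200 to 12500 FPKM in DMSO+EV libraries. The 5 leukocyte markers summed to 2.27 to 4.25 FPKM in OC, 1.18 to 2.25 FPKM in OL+EV and 1.44 to 1.99 FPKM in DMSO+EV libraries, mostly from CD14, and CD3E, a T cell marker, was listed at 0 in the OC libraries. The 3 fibroblast markers summed to 5.53 to 6.05 FPKM in OC, 3.20 to 3.54 FPKM in OL+EV and 3.35 to 3.70 FPKM in DMSO+EV libraries. The 3 endothelial markers summed to 0.736 to 0.955 FPKM in OC, 0.135 to 0.207 FPKM in OL+EV and 3.55 to 4.08 FPKM in DMSO+EV libraries, and the part of these low levels in the results was not tested. EGFR, the target of osimertinib, was at 43.3 ± 11.2 FPKM in OC, 38.4 ± 2.80 FPKM in OL+EV and 52.3 ± 8.14 FPKM in DMSO+EV libraries and was called in no comparison. DMSO+EV replicate 2 stood apart in RN7SL1, a small noncoding RNA of the signal recognition particle, at 443 FPKM. OC replicate 3 stood apart from the other OC libraries in several of the transporters, as its values below show. The labels name RNase R, which digests linear RNA, in a protocol shared by all samples, and do not settle whether these libraries had it.

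The letters around the transcription starts were read for 2 short motifs known for the regulators above. RefSeq windows of GRCh38.p14 hold 250 bases before and 50 after each start, and the 9 genes had 16 such windows. TGATGNAA, the composite element bound by ATF4 with C/EBP proteins, was found on either strand in 5 of 9 genes and in 5 of their 16 windows, against 4.46% of 27305 genes and 3.62% of 35116 windows overall. CACGTG, the E-box bound by MYC and by the MITF family, was found in 3 of 9 genes and in 3 of 16 windows, against 8.77% of all genes and 7.26% of all windows. SLC3A2, SLC1A4, SLC1A5, SLC38A1 and SLC36A1 had 2 or 3 windows each, which leaves more room for a match per gene. The sites of these genes lay at starts inside the bounds of the gene. The motifs do not overlap, and a match describes letters and is not evidence of binding. Both motifs were picked for regulators already known to target several of these genes, so the shares are no independent evidence. The sites are shown 5′ to 3′ on the strand of the gene with the motif, or its reverse complement, in capitals. The first 5 lines show the composite element, on the minus strand except in SLC3A2 and SLC1A4. The other 4 show the E-box, on the minus strand in SLC7A5 and SLC1A5.
SLC3A2, chr11:62881726-62881748: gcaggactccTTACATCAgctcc
SLC7A1, chr13:29595664-29595691: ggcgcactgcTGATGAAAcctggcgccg
SLC1A4, chr2:64989382-64989409: cggctcccgtTTGCATCAtctccagccg
SLC1A5, chr19:46784894-46784921: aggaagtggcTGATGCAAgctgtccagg
SLC38A1, chr12:46266503-46266530: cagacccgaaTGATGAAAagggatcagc
SLC7A5, chr16:87869622-87869647: ccggacgacgCACGTGctccgagctg
SLC1A5, chr19:46787328-46787353: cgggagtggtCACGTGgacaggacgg
SLC36A1, chr5:151447550-151447575: ctcaagggagCACGTGacctcggcct
SLC36A1, chr5:151447585-151447610: gcggtgggatCACGTGatgaggtccg

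Neither motif was found in the windows of SLC38A2 and SLC6A9. SLC6A9 was the tested transporter that was higher in both drug-treated groups. SLC7A5 was among those lower in both, as were SLC1A5 and SLC7A1, which fell further, and SLC38A2, which has neither motif. A link between the motifs and the direction of change was not tested. The 250 bases before the start of SLC6A9 and SLC7A5 are shown whole as examples, with the E-box of SLC7A5 in capitals. Both are from the minus strand.
SLC6A9, chr1:44031463-44031712: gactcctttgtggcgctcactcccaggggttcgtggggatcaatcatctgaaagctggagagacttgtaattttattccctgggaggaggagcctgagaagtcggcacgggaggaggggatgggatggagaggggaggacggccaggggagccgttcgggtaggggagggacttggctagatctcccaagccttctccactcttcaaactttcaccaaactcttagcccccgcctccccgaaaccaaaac
SLC7A5, chr16:87869508-87869757: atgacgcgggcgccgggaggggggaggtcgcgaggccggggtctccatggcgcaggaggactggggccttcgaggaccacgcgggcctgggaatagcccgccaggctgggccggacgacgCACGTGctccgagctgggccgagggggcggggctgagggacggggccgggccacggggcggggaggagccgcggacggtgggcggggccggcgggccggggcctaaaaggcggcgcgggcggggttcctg

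The glycine transporter SLC6A9 was much higher in OC cells, and 6 of the other 7 tested transporters were lower under both treatments than in vehicle. In mean FPKM the order in OC cells was SLC3A2, SLC6A9, SLC7A5, SLC38A2, SLC1A5, SLC38A1, SLC7A1, SLC36A1 and SLC1A4. In OL+EV cells SLC6A9 ranked 5, behind SLC3A2, SLC7A5, SLC1A5 and SLC38A2, and in DMSO+EV cells it ranked 6, behind SLC38A1 as well. Neighbours in these orders did not overlap between libraries except SLC7A1 and SLC36A1 in OC cells and SLC6A9 and SLC7A1 in DMSO+EV cells.

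**Figure D1:**
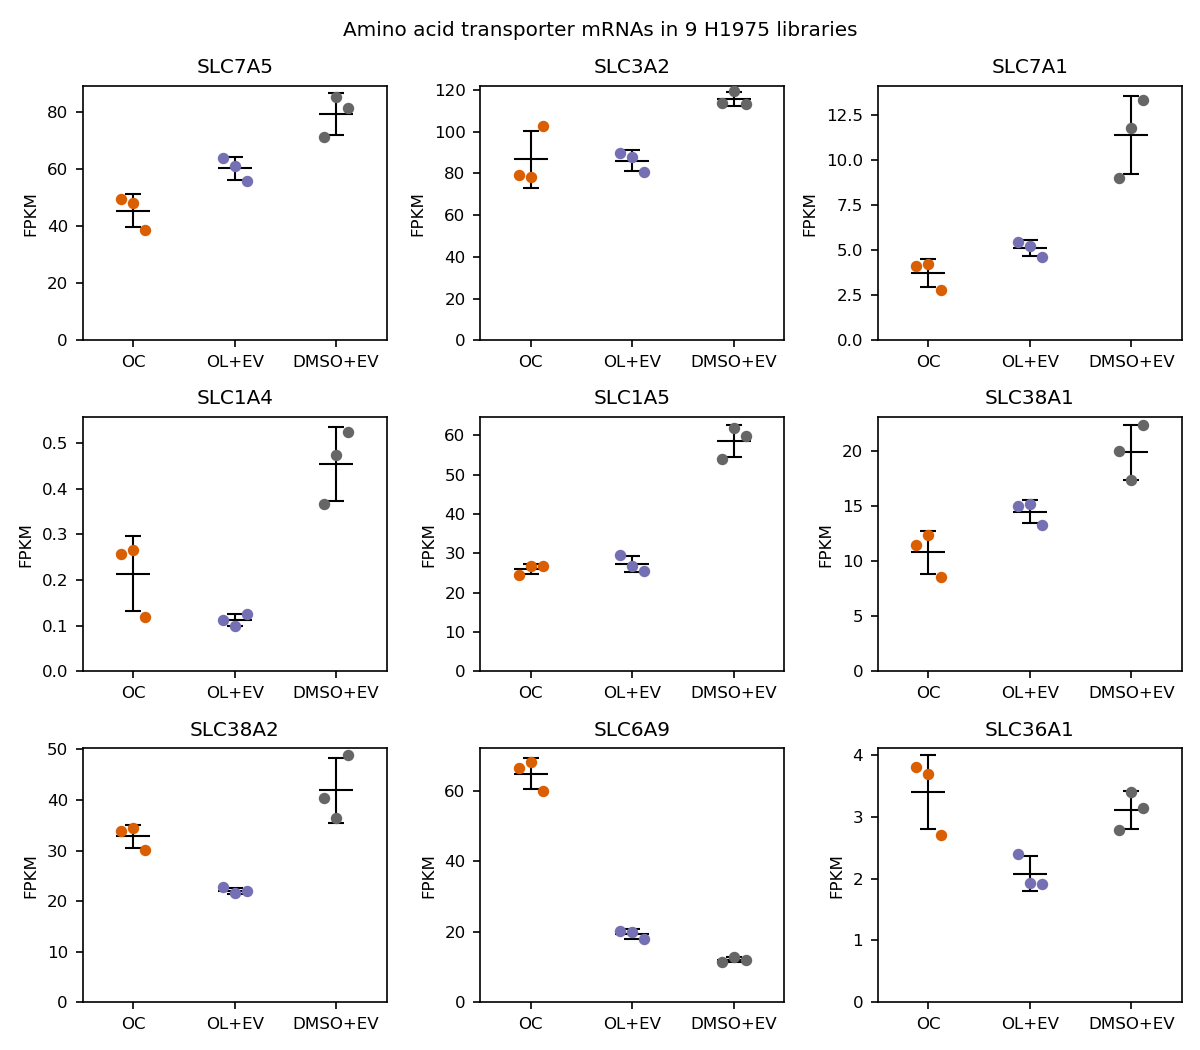
FPKM of the 9 transporters in each library (points) with the mean and SD of the 3 libraries of OC, OL+EV and DMSO+EV, each panel on its own axis. SLC6A9 lies between 59.9 and 68.3 FPKM in OC and at or below 20.3 FPKM elsewhere, while SLC1A5 lies at or below 29.6 FPKM in both treated groups and at or above 54.1 FPKM in DMSO+EV.

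SLC6A9 (chr1:43996483-44031462, minus strand) measured 66.4, 68.3 and 59.9 FPKM in the OC libraries, 20.3, 20.1 and 17.9 FPKM in the OL+EV libraries and 11.5, 12.8 and 12.1 FPKM in the DMSO+EV libraries. The 3 groups were fully separated, with OC highest and DMSO+EV lowest. Against DMSO+EV, the mean in OC cells was 5.35 times as high, a log2 fold change of 2.33 ± 0.09 (SE; limma on log2(FPKM + 1), Benjamini-Hochberg adjusted p = 8.11e-11, n = 3 each). Against OL+EV the OC mean was 3.34 times as high, at a log2 fold change of 1.69 (limma, Benjamini-Hochberg adjusted p = 4.95e-09). OL+EV cells exceeded DMSO+EV cells by 0.64 on this scale (limma, Benjamini-Hochberg adjusted p = 6.49e-05). Of all tested genes, 98% had a smaller log2 fold change than SLC6A9 between OC and DMSO+EV, and 88.7% between OL+EV and DMSO+EV. SLC6A9 overlaps CCDC24, a gene measured at 9.92 ± 0.937 FPKM in OC, 24.0 ± 1.10 FPKM in OL+EV and 14.9 ± 1.77 FPKM in DMSO+EV libraries. CCDC24 lies at chr1:43991599-43996528, so the 2 genes share only the stretch from 43996483 to 43996528. Reads within that stretch can be told apart only if counting used strand, which the sources used here do not state.

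The leucine exchanger was lower in both treated groups in both of its chains. SLC7A5, the light chain (chr16:87830023-87869507, minus strand), measured 49.6, 48.0 and 38.8 FPKM in OC, 63.9, 61.1 and 55.9 FPKM in OL+EV and 71.1, 85.4 and 81.6 FPKM in DMSO+EV libraries. These 3 groups did not overlap, with OC lowest and DMSO+EV highest. Against DMSO+EV, SLC7A5 had a log2 fold change of -0.79 ± 0.11 in OC cells (limma, Benjamini-Hochberg adjusted p = 3.09e-05) and of -0.39 ± 0.11 in OL+EV cells (limma, Benjamini-Hochberg adjusted p = 0.011). The log2 fold change of OC against OL+EV was -0.41 (limma, Benjamini-Hochberg adjusted p = 0.00748). The call of SLC7A5 between OL+EV and DMSO+EV ended without DMSO+EV replicate 2, at an adjusted p of 0.053 (limma), without OL+EV replicate 3, at 0.0506 (limma), and with equal totals, at 0.0651 (limma). Its call between OC and OL+EV ended when libraries were scaled to equal totals, at an adjusted p of 0.442 (limma). The pseudogenes SLC7A5P1 and SLC7A5P2 are near copies whose reads may be shared with SLC7A5, and SLC7A5P2 measured 1.35 ± 0.685 FPKM in OC, 2.79 ± 0.147 FPKM in OL+EV and 3.54 ± 0.311 FPKM in DMSO+EV libraries.

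SLC3A2, the heavy chain (chr11:62856109-62888860, plus strand), measured 79.2, 78.1 and 103 FPKM in OC, 89.7, 88.1 and 80.4 FPKM in OL+EV and 114, 120 and 113 FPKM in DMSO+EV libraries. OC and OL+EV overlapped, OC replicate 3 was the highest treated library, and all DMSO+EV libraries were above both groups. The log2 fold change against DMSO+EV was -0.42 ± 0.11 in OC cells (limma, Benjamini-Hochberg adjusted p = 0.00434) and -0.42 ± 0.11 in OL+EV cells (limma, Benjamini-Hochberg adjusted p = 0.00639). The estimate for OC against OL+EV was 0.00, with a 95% interval of -0.24 to 0.24. With equal totals the call against DMSO+EV in OC cells ended, at a log2 fold change of -0.09 (limma, Benjamini-Hochberg adjusted p = 0.455), and OC was called higher than OL+EV at 0.28 (limma, Benjamini-Hochberg adjusted p = 0.0293). That scaling moved the median log2 fold change of all tested genes between OC and DMSO+EV to 0.25, and relative to this median SLC3A2 was at -0.34.

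The log2 ratio of SLC7A5 to SLC3A2 averaged -0.93 ± 0.413 in OC, -0.51 ± 0.022 in OL+EV and -0.55 ± 0.116 in DMSO+EV libraries (SD, n = 3). OC was below OL+EV by 0.41 in the mean without overlap (exact permutation test, two-sided, p = 0.1, the smallest that 3 against 3 allows), and OC overlapped DMSO+EV (exact permutation p = 0.2). The OC values were -0.68, -0.70 and -1.40, so replicate 3 set the spread. Without it the difference was -0.17 against OL+EV and -0.14 against DMSO+EV. Of the other light chains of SLC3A2, SLC7A11, the cystine/glutamate exchanger, was lower in OC and OL+EV than in DMSO+EV, and SLC7A7, an exchanger of cationic and neutral amino acids, was higher in both. SLC7A8, which passed the filter only through OC, averaged 1.8 FPKM in OC, 0.689 FPKM in OL+EV and 0.249 FPKM in DMSO+EV libraries. SLC7A6 was lower in OC than in DMSO+EV (limma, Benjamini-Hochberg adjusted p = 0.0266) and was not called in OL+EV. Its OC call ended under rescaling, at an adjusted p of up to 0.979 (limma). The 5 light chains SLC7A5, SLC7A6, SLC7A7, SLC7A8 and SLC7A11 summed to 65.6 ± 7.83 FPKM in OC, 87.7 ± 5.17 FPKM in OL+EV and 103 ± 8.06 FPKM in DMSO+EV libraries. Per unit of SLC3A2 this was 0.778 ± 0.195 in OC, 1.02 ± 0.0174 in OL+EV and 0.889 ± 0.059 in DMSO+EV libraries, where the OC libraries measured 0.901, 0.880 and 0.552 and replicate 3 was again the lowest.

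The arginine importer SLC7A1 (chr13:29509414-29595688, minus strand) measured 4.16, 4.22 and 2.82 FPKM in OC, 5.48, 5.25 and 4.65 FPKM in OL+EV and 9.05, 11.8 and 13.4 FPKM in DMSO+EV libraries. The groups did not overlap, and DMSO+EV was above both treated groups in every library. Against DMSO+EV the log2 fold change was -1.39 ± 0.15 in OC cells (limma, Benjamini-Hochberg adjusted p = 1.78e-06) and -1.01 ± 0.15 in OL+EV cells (limma, Benjamini-Hochberg adjusted p = 7.3e-05). For OC against OL+EV it was -0.38 (limma, Benjamini-Hochberg adjusted p = 0.0363). This call ended without OC replicate 3, where the log2 fold change was -0.24, without OL+EV replicate 1 and without OL+EV replicate 2, at adjusted p-values of 0.159, 0.101 and 0.0869 (limma), and under 5 of the other settings listed in the closing section.

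The glutamine exchanger SLC1A5 (chr19:46774883-46788594, minus strand) measured 24.6, 26.8 and 26.8 FPKM in OC, 29.6, 26.9 and 25.6 FPKM in OL+EV and 54.1, 62.0 and 59.9 FPKM in DMSO+EV libraries. All treated libraries were below all DMSO+EV libraries, and OC and OL+EV overlapped. Its log2 fold change was -1.14 ± 0.09 between OC and DMSO+EV (limma, Benjamini-Hochberg adjusted p = 1.41e-07) and -1.07 ± 0.09 between OL+EV and DMSO+EV (limma, Benjamini-Hochberg adjusted p = 6.38e-07). For OC against OL+EV it was -0.07, with a 95% interval of -0.27 to 0.14, and was not called. Its paralog SLC1A4 (chr2:64988479-65023865, plus strand) measured 0.256, 0.266 and 0.120 FPKM in OC, 0.112, 0.0993 and 0.126 FPKM in OL+EV and 0.365, 0.473 and 0.524 FPKM in DMSO+EV libraries. Its treated libraries were all below its DMSO+EV libraries, at levels of a fraction of 1 FPKM that the filter left out. With no filter the log2 fold change was -0.26 in OC cells (limma, Benjamini-Hochberg adjusted p = 0.0204) and -0.39 in OL+EV cells (limma, Benjamini-Hochberg adjusted p = 0.00489), and the pseudocount of 1 makes these values small. The log2 ratio of SLC1A5 to SLC1A4, taken without a pseudocount, averaged 7.01 ± 0.686 in OC, 7.93 ± 0.230 in OL+EV and 7.03 ± 0.186 in DMSO+EV libraries (SD, n = 3). OL+EV was above DMSO+EV without overlap (exact permutation p = 0.1, the smallest possible), and OC overlapped both other groups (exact permutation p = 0.2 against OL+EV and 1 against DMSO+EV). The OC values were 6.58, 6.65 and 7.81, so both overlaps came from replicate 3. Without it OC differed by -0.41 from DMSO+EV and by -1.31 from OL+EV, and its other 2 libraries lay below all libraries of both groups.

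SLC38A2 and SLC38A1, both on chromosome 12, differed in which treated group was lowest. SLC38A2 (chr12:46358188-46372773, minus strand) measured 33.8, 34.4 and 30.2 FPKM in OC, 22.7, 21.5 and 22.0 FPKM in OL+EV and 40.4, 36.4 and 48.9 FPKM in DMSO+EV libraries, with OL+EV lowest and no overlap between groups. SLC38A1 (chr12:46183063-46269043, minus strand) measured 11.5, 12.3 and 8.54 FPKM in OC, 15.0, 15.1 and 13.3 FPKM in OL+EV and 20.0, 17.3 and 22.3 FPKM in DMSO+EV libraries, with OC lowest and again no overlap.

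Against DMSO+EV, SLC38A2 had a log2 fold change of -0.33 ± 0.11 in OC cells (limma, Benjamini-Hochberg adjusted p = 0.0141) and of -0.88 ± 0.11 in OL+EV cells (limma, Benjamini-Hochberg adjusted p = 1.59e-05). OC exceeded OL+EV by 0.55 (limma, Benjamini-Hochberg adjusted p = 0.000691). SLC38A1 had log2 fold changes of -0.83 ± 0.13 in OC (limma, Benjamini-Hochberg adjusted p = 6.61e-05) and -0.43 ± 0.13 in OL+EV cells (limma, Benjamini-Hochberg adjusted p = 0.0138) against DMSO+EV, and of -0.41 in OC against OL+EV (limma, Benjamini-Hochberg adjusted p = 0.015). The log2 ratio of SLC38A2 to SLC38A1 averaged 1.62 ± 0.178 in OC, 0.61 ± 0.108 in OL+EV and 1.07 ± 0.059 in DMSO+EV libraries (SD, n = 3). No pair of groups overlapped in this ratio, and each exact permutation test gave the smallest possible p, 0.1. The ratio is within a library and so does not depend on scaling by a factor per library, while quantile normalization can change it. Several of these calls depended on single libraries or on the scaling. The call of SLC38A2 between OC and DMSO+EV ended without DMSO+EV replicate 3, at a log2 fold change of -0.22 and an adjusted p of 0.059 (limma), and with equal totals, at -0.004 with an adjusted p of 0.978 (limma), and ended with equal totals without mitochondrial genes, at 0.0663 (limma). That of SLC38A1 between OL+EV and DMSO+EV ended without DMSO+EV replicate 3 or OL+EV replicate 3, at adjusted p-values of 0.062 and 0.0565 (limma), and with equal totals or no filter, at 0.0627 and 0.0668 (limma). That of SLC38A1 between OC and OL+EV ended without OC replicate 3, at -0.26 with an adjusted p of 0.0582 (limma), and without OL+EV replicate 2, at 0.0526 (limma). With equal totals it was at -0.15 with an adjusted p of 0.431 (limma), and it also ended with equal totals without mitochondrial genes and with no filter, at adjusted p-values of 0.0506 and 0.0685 (limma).

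SLC36A1 (chr5:151344596-151556085, plus strand), the proton-coupled carrier, measured 3.80, 3.68 and 2.70 FPKM in OC, 2.40, 1.92 and 1.91 FPKM in OL+EV and 2.79, 3.40 and 3.14 FPKM in DMSO+EV libraries. OL+EV was below both other groups without overlap, and OC and DMSO+EV overlapped. OC exceeded OL+EV by a log2 fold change of 0.51 ± 0.12 (limma, Benjamini-Hochberg adjusted p = 0.00259), and in OL+EV against DMSO+EV it was -0.42 ± 0.12 (limma, Benjamini-Hochberg adjusted p = 0.0103). Between OC and DMSO+EV the log2 fold change was 0.09, with a 95% interval of -0.17 to 0.35 (limma, Benjamini-Hochberg adjusted p = 0.517). With equal totals OC was called above DMSO+EV at 0.35 (limma, Benjamini-Hochberg adjusted p = 0.0441), and the call of OL+EV against DMSO+EV ended at an adjusted p of 0.0505 (limma). FAT2, which overlaps SLC36A1, was at most at 0.0915 FPKM in any library.

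**Figure D2:**
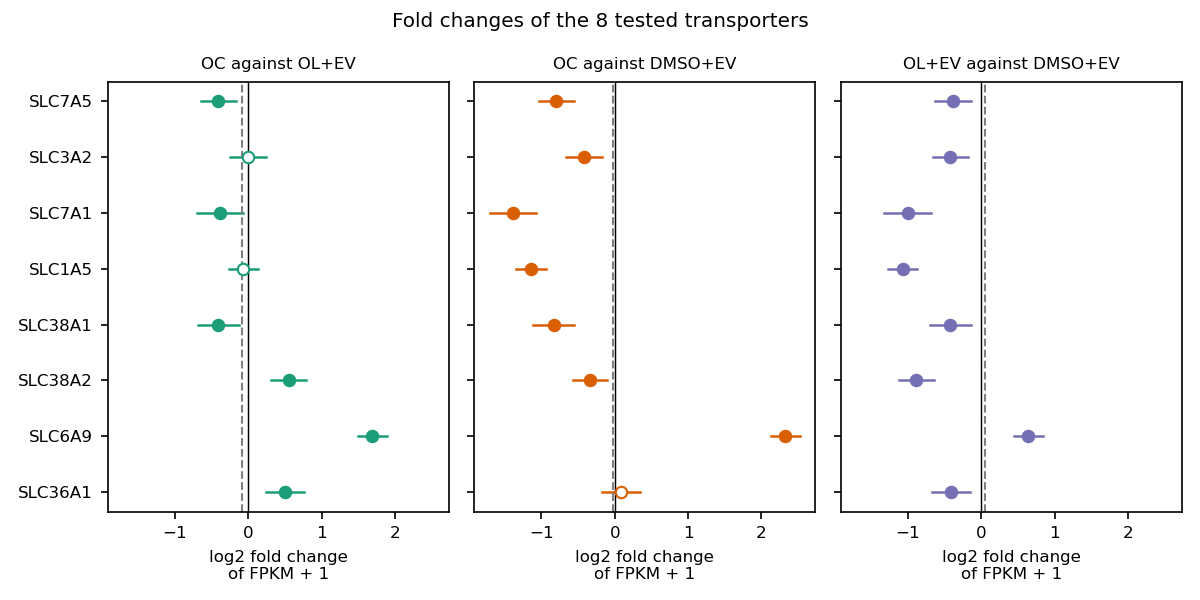
Log2 fold change of the 8 tested transporters in each comparison, with 95% intervals from limma on log2(FPKM + 1). Filled points passed an adjusted p of 0.05, and the dashed line is the median of all tested genes. SLC6A9 lies at 2.33 between OC and DMSO+EV, and SLC7A1 at -1.39.

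Counted over the 8 tested transporters, 7 passed the threshold of an adjusted p of 0.05 (limma, Benjamini-Hochberg) between OC and DMSO+EV, 1 higher and 6 lower, while 69% of all tested genes passed it, 33.1% higher and 35.8% lower. All 8 passed between OL+EV and DMSO+EV, 1 higher and 7 lower, where 52.6% of all tested genes did, 29% higher and 23.5% lower. Between OC and OL+EV 6 passed, 3 higher and 3 lower, against 60.7% of all tested genes, 25.9% higher and 34.8% lower. The last count was 4 without OC replicate 3 and 4 without OL+EV replicate 2. With shares this large, nothing particular to the transporters is read from their count. Past an absolute log2 fold change of 1 and the same threshold were SLC7A1, SLC1A5 and SLC6A9 between OC and DMSO+EV, where 21.8% of all tested genes were. SLC7A1 and SLC1A5 were past both between OL+EV and DMSO+EV, against 9.19% of all tested genes, and SLC6A9 was between OC and OL+EV, against 11% of them. The groups did not overlap in 7 of 8 transporters between OC and DMSO+EV, in 8 of 8 between OL+EV and DMSO+EV and in 6 of 8 between OC and OL+EV, against 69.8%, 61.9% and 68.1% of all tested genes. The median log2 fold change of the 8 was -0.61 between OC and DMSO+EV, where that of all tested genes was -0.03. It was -0.42 between OL+EV and DMSO+EV, against 0.05 for all genes, and -0.03 between OC and OL+EV, against -0.09 for all genes. Both comparisons with DMSO+EV share its 3 libraries. The split of all called genes depended on scaling: between OC and DMSO+EV 4563 were higher and 4936 lower as deposited, and 6524 higher and 3214 lower with equal totals. Between OC and OL+EV 3568 were higher and 4788 lower as deposited, and 5188 higher and 2751 lower with equal totals.

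**Figure D3:**
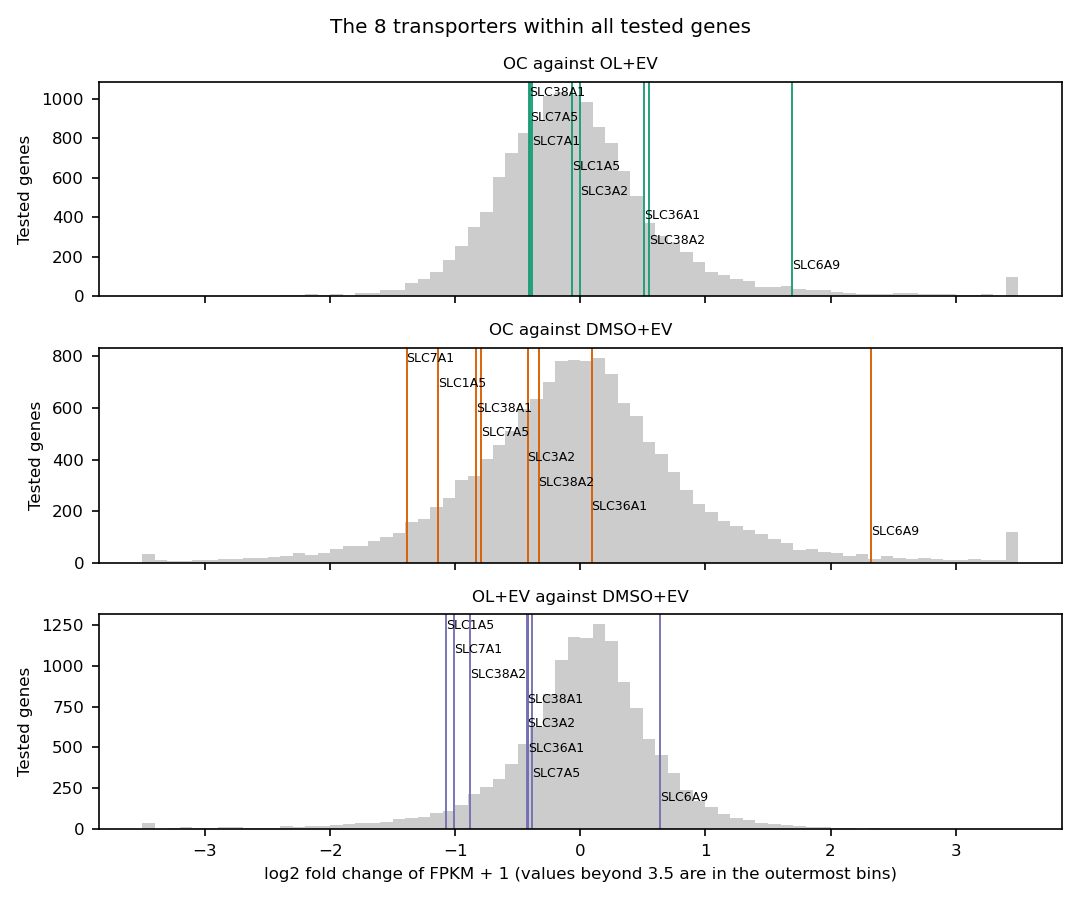
Distribution of the log2 fold change of all 13775 tested genes in each comparison, with the 8 tested transporters marked and values beyond 3.5 in the outermost bins. SLC6A9 stands to the right of 98% of all genes between OC and DMSO+EV, and 8.99% of all genes lie to the left of SLC1A5 there.

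The summed level of the 9 transporters was 274 ± 1.92 FPKM in OC, 237 ± 13.9 FPKM in OL+EV and 342 ± 16.9 FPKM in DMSO+EV libraries (SD, n = 3). Its make-up also differed between the groups. SLC6A9 took 23.7% of it in OC, 8.19% in OL+EV and 3.54% in DMSO+EV cells. SLC1A5 took 9.52% in OC, 11.5% in OL+EV and 17.1% in DMSO+EV cells, and SLC3A2, the most abundant in every group, took 31.6% in OC, 36.3% in OL+EV and 33.8% in DMSO+EV cells.

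**Figure D4:**
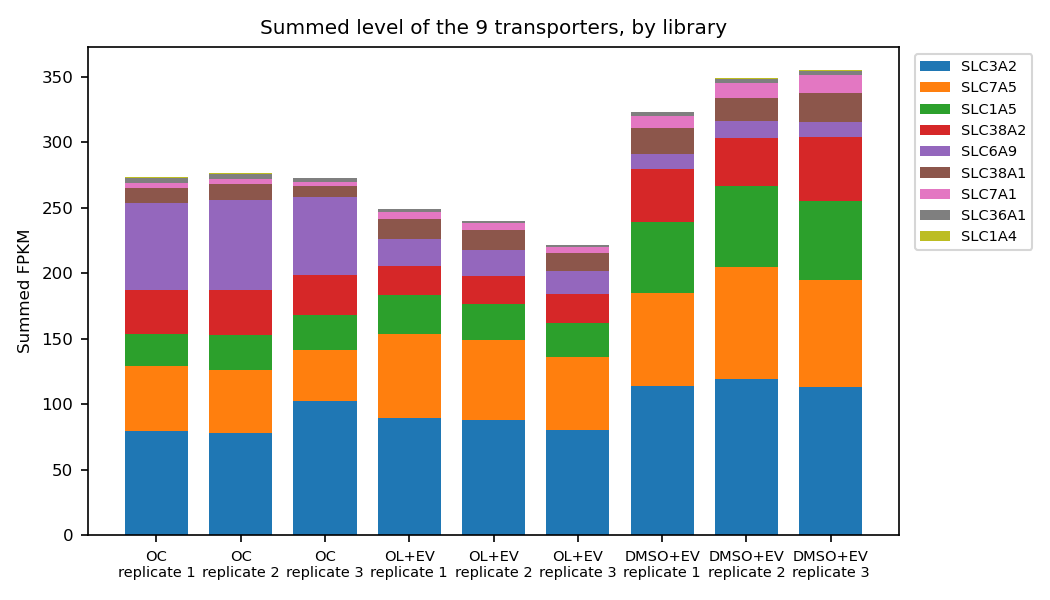
Summed FPKM of the 9 transporters in each library of OC, OL+EV and DMSO+EV, stacked by gene. The SLC6A9 part is large in the OC libraries, where the sum is 273 to 276 FPKM, and small in the DMSO+EV libraries, where it is 323 to 355 FPKM.

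Genes whose pattern over the 9 libraries was nearest to each transporter were found by the root-mean-square difference of log2(FPKM + 1) after taking off the DMSO+EV mean. Only tested genes with a mean of at least 5 FPKM in any of the groups were searched. The nearest to SLC6A9 were H2BC21, a histone gene, at 0.08, CACNA1I, a calcium channel gene, at 0.10, and PTPRH, a phosphatase gene, at 0.10. The nearest to SLC7A5 were MGLL, ICMT and RRP1B, at 0.06 to 0.08, and the nearest to SLC3A2 were SRSF9, COQ6 and PSMB7, at 0.07. The nearest to SLC1A5 were CARD10, PPIF and TSR1, at 0.06 to 0.08. SLC7A1 was nearest to MAP3K20, LRRC59 and MAP7D3, at 0.13 to 0.15. SLC38A1 was nearest to SCAF4, CCNH and MAP1B, at 0.07 to 0.11, SLC38A2 to TLNRD1, MBNL1 and VSIG10L, at 0.10 to 0.11, and SLC36A1 to EMC1, TCF20 and PPFIA1, at 0.07 to 0.08.

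Other amino acid transporters were read from a list of 41 genes, of which 10 were not analysed here and 13 passed the filter. SLC1A1 and SLC7A8 passed it only through OC. Between OC and DMSO+EV 8 were higher and 2 lower, with a median log2 fold change of 0.50, and between OL+EV and DMSO+EV 9 were higher and 2 lower, with a median of 0.39. OC and OL+EV differed with 5 higher and 5 lower in OC. Without SLC1A1 and SLC7A8 the counts were 6 higher and 2 lower between OC and DMSO+EV, with a median of 0.33, 8 higher and 2 lower between OL+EV and DMSO+EV, with a median of 0.39, and 3 higher and 5 lower between OC and OL+EV, with a median of -0.22. Of all tested genes, 33.1% were higher and 35.8% lower in the comparison of OC with DMSO+EV, 29% and 23.5% in that of OL+EV with DMSO+EV, and 25.9% and 34.8% in that of OC with OL+EV. SLC1A3, a glutamate importer, was at 18.8 ± 2.22 FPKM in OC, 3.96 ± 0.313 FPKM in OL+EV and 5.15 ± 0.512 FPKM in DMSO+EV libraries, and rose in OC against DMSO+EV by a log2 fold change of 1.69 (limma, Benjamini-Hochberg adjusted p = 1.11e-08). SLC7A11 was at 2.52 ± 0.263 FPKM in OC, 4.30 ± 0.134 FPKM in OL+EV and 8.57 ± 1.21 FPKM in DMSO+EV libraries and fell in both treated groups (limma, Benjamini-Hochberg adjusted p = 5.57e-08 in OC and 2.17e-05 in OL+EV). SLC7A7 was at 7.08 ± 0.983 FPKM in OC, 10.8 ± 1.14 FPKM in OL+EV and 3.69 ± 0.528 FPKM in DMSO+EV libraries and rose in both (limma, Benjamini-Hochberg adjusted p = 5.76e-05 in OC and 9.13e-07 in OL+EV). CTNS, which exports cystine from lysosomes, was at 4.83 ± 0.334 FPKM in OC, 7.08 ± 1.19 FPKM in OL+EV and 3.63 ± 0.114 FPKM in DMSO+EV libraries, and rose in OL+EV against DMSO+EV (limma, Benjamini-Hochberg adjusted p = 4.49e-05). The facilitator SLC43A2 was at 8.16 ± 0.154 FPKM in OC, 6.69 ± 0.619 FPKM in OL+EV and 3.78 ± 0.278 FPKM in DMSO+EV libraries.

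**Figure D5:**
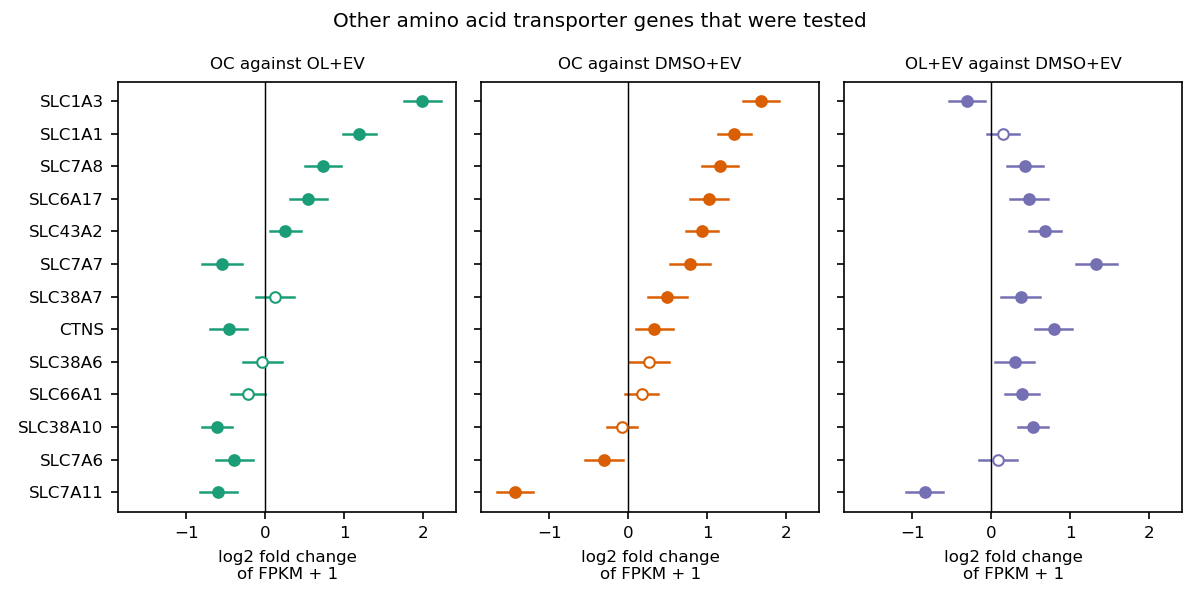
Log2 fold change, with 95% intervals from limma on log2(FPKM + 1), of the 13 tested genes of the list of other amino acid transporters, with filled points for an adjusted p under 0.05. SLC1A3 lies at 1.69 between OC and DMSO+EV and SLC7A11 at -1.44.

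The amino acid response list held targets and partners of ATF4, and 24 of its 26 genes were tested. CHAC1, NUPR1 and ADM2 passed the filter only through OC, where they were highest. Between OC and DMSO+EV 7 were higher and 14 lower, and between OL+EV and DMSO+EV 4 were higher and 13 lower, with medians of -0.36 and -0.45. Between OC and OL+EV 13 were higher and 7 lower, with a median of 0.39. Without those 3 genes, 4 were higher and 14 lower between OC and DMSO+EV, with a median of -0.53, 4 higher and 12 lower between OL+EV and DMSO+EV, with a median of -0.63, and 10 higher and 7 lower between OC and OL+EV, with a median of 0.10. In all, 87.5%, 70.8% and 83.3% of the 24 genes were called in these comparisons, against 69%, 52.6% and 60.7% of all tested genes. Those shares include CHAC1, NUPR1 and ADM2. PHGDH, the first enzyme of serine synthesis, was at 14.9 ± 1.14 FPKM in OC, 17.6 ± 1.76 FPKM in OL+EV and 59.6 ± 4.29 FPKM in DMSO+EV libraries, and fell in both treated groups (limma, Benjamini-Hochberg adjusted p = 1.36e-09 in OC and 1.34e-08 in OL+EV). STC2, a secreted glycoprotein, was at 16.1 ± 0.486 FPKM in OC, 3.15 ± 0.182 FPKM in OL+EV and 19.6 ± 1.03 FPKM in DMSO+EV libraries, and was higher in OC than in OL+EV (limma, Benjamini-Hochberg adjusted p = 2.74e-10). ATF3 was at 8.53 ± 0.290 FPKM in OC, 36.6 ± 2.01 FPKM in OL+EV and 13.6 ± 2.07 FPKM in DMSO+EV libraries. Unlike STC2, it was lower in OC than in OL+EV (limma, Benjamini-Hochberg adjusted p = 3.67e-09). DDIT4, an inhibitor of mTORC1, was at 98.3 ± 11.4 FPKM in OC, 16.3 ± 1.83 FPKM in OL+EV and 20.8 ± 3.66 FPKM in DMSO+EV libraries, and rose in OC against both (limma, Benjamini-Hochberg adjusted p = 7.36e-09 against DMSO+EV). EIF4EBP1, a translation repressor and mTORC1 substrate, was at 16.4 ± 1.90 FPKM in OC, 32.7 ± 3.53 FPKM in OL+EV and 61.4 ± 3.26 FPKM in DMSO+EV libraries. ATF4 itself, named here after its values were seen, was at 238 ± 37.0 FPKM in OC, 239 ± 55.2 FPKM in OL+EV and 234 ± 7.95 FPKM in DMSO+EV libraries and was called in no comparison (limma, Benjamini-Hochberg adjusted p of 0.939 to 0.992).

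Of 32 tested genes of amino acid sensing by mTORC1, 9 were higher and 10 lower between OC and DMSO+EV, 12 higher and 3 lower between OL+EV and DMSO+EV, and 5 higher and 13 lower between OC and OL+EV. These are 59.4%, 46.9% and 56.2% of the list, against 69%, 52.6% and 60.7% of all tested genes, so nothing particular to the list is read from them. CASTOR2, of the arginine sensor family, was at 3.91 ± 0.0822 FPKM in OC, 11.4 ± 0.495 FPKM in OL+EV and 8.67 ± 0.616 FPKM in DMSO+EV libraries, and fell in OC against OL+EV (limma, Benjamini-Hochberg adjusted p = 3.7e-08). RRAGC, a Rag GTPase that brings mTORC1 to lysosomes, was at 11.7 ± 1.41 FPKM in OC, 5.37 ± 0.188 FPKM in OL+EV and 4.14 ± 0.596 FPKM in DMSO+EV libraries and rose in OC (limma, Benjamini-Hochberg adjusted p = 1.84e-07 against DMSO+EV). SEH1L, a nucleoporin of the GATOR2 complex, was at 2.33 ± 0.518 FPKM in OC, 3.01 ± 0.175 FPKM in OL+EV and 7.50 ± 0.896 FPKM in DMSO+EV libraries and fell in both treated groups (limma, Benjamini-Hochberg adjusted p = 4.31e-07 in OC and 8.97e-06 in OL+EV).

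Of 15 tested enzymes of glutamine, branched-chain amino acid and arginine use, 7 were higher and 4 lower between OC and DMSO+EV and 7 higher and 4 lower between OL+EV and DMSO+EV. In OC against OL+EV 4 were higher and 3 lower. The called shares were 73.3%, 73.3% and 46.7% of the list, against 69%, 52.6% and 60.7% of all tested genes. GOT1, the cytosolic aspartate aminotransferase, was at 5.29 ± 0.462 FPKM in OC, 8.25 ± 0.584 FPKM in OL+EV and 15.8 ± 1.33 FPKM in DMSO+EV libraries and fell in both (limma, Benjamini-Hochberg adjusted p = 2.67e-08 in OC and 8.2e-06 in OL+EV). ASS1, which makes argininosuccinate on the way to arginine, was at 319 ± 13.7 FPKM in OC, 245 ± 12.5 FPKM in OL+EV and 154 ± 5.31 FPKM in DMSO+EV libraries and rose in both (limma, Benjamini-Hochberg adjusted p = 3.74e-07 in OC and 5.72e-05 in OL+EV). BCAT1, the cytosolic branched-chain aminotransferase, was at 13.1 ± 0.829 FPKM in OC, 6.48 ± 0.0413 FPKM in OL+EV and 11.8 ± 1.92 FPKM in DMSO+EV libraries. BCAT1 was higher in OC than in OL+EV (limma, Benjamini-Hochberg adjusted p = 1.01e-05). Against DMSO+EV it was lower in OL+EV (limma, Benjamini-Hochberg adjusted p = 5.44e-05) and not called in OC (limma, Benjamini-Hochberg adjusted p = 0.234). BCAT2, the mitochondrial branched-chain aminotransferase, was at 10.3 ± 2.31 FPKM in OC, 26.3 ± 0.643 FPKM in OL+EV and 21.4 ± 2.59 FPKM in DMSO+EV libraries. BCAT2 was lower in OC than in OL+EV (limma, Benjamini-Hochberg adjusted p = 3.92e-06).

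Of 9 tested regulators and partners of the transporters, 4 were higher and 2 lower between OC and DMSO+EV, and 3 higher and 2 lower between OL+EV and DMSO+EV. In OC against OL+EV 4 were higher and 2 lower. The list's called shares of 66.7%, 55.6% and 66.7% in these comparisons lie near the 69%, 52.6% and 60.7% of all tested genes. Single libraries moved 2 of the counts: between OC and OL+EV 3 genes were called without OC replicate 2 and 3 without OL+EV replicate 2, and between OL+EV and DMSO+EV 3 were called without OL+EV replicate 1. With no filter 3 were called in each of these 2 comparisons. MYC was at 6.74 ± 0.209 FPKM in OC, 9.97 ± 0.345 FPKM in OL+EV and 25.4 ± 1.76 FPKM in DMSO+EV libraries and fell in both (limma, Benjamini-Hochberg adjusted p = 7.26e-10 in OC and 5.75e-08 in OL+EV). NFE2L2, a stress transcription factor that targets SLC7A11, was at 40.6 ± 1.44 FPKM in OC, 24.0 ± 0.643 FPKM in OL+EV and 18.6 ± 3.69 FPKM in DMSO+EV libraries, and rose in OC (limma, Benjamini-Hochberg adjusted p = 1.99e-06 against DMSO+EV). LAPTM4A, a lysosomal membrane protein, was at 218 ± 29.7 FPKM in OC, 77.2 ± 9.16 FPKM in OL+EV and 53.7 ± 14.3 FPKM in DMSO+EV libraries. LAPTM4B, of the same list, went the other way, at 41.8 ± 4.18 FPKM in OC, 40.2 ± 2.60 FPKM in OL+EV and 59.5 ± 9.72 FPKM in DMSO+EV libraries. It was lower than in DMSO+EV in both treated groups (limma, Benjamini-Hochberg adjusted p = 0.00245 in OC and 0.0019 in OL+EV). Its OC call ended under rescaling, at an adjusted p of up to 0.283 (limma).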

How the data were processed

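RNA-seq of H1975 gave 9 libraries, and the 12 other libraries of the 21 in the series were not analysed here. The deposited table names no unit; its fractional values and unequal totals point to FPKM, which the authors made before deposit. Tools and a build that stand in the submitters' processing notes, without roles, are STAR, edgeR, hg38 and Bowtie2 (version 2.1.0). Which counter, annotation, strand setting and filters were used is not given in the sources used here. Low values showed no whole-read steps for most genes, so read depth is unknown, no counting interval is given and no count test was run. The files were read by column name, and 913 genes were 0 in all libraries. A single fit of limma 3.58.1 in R 4.3.3 over the 9 libraries, with trend and robust variance, tested log2(FPKM + 1) for the 13775 genes with at least 1 FPKM in at least 3 libraries, with p-values adjusted by Benjamini-Hochberg over all of them and a threshold of 0.05. For low genes this scale gives fold changes that are too small. Ratios between genes were compared by exact permutation tests, two-sided. RefSeq positions and sequences are of GRCh38.p14, in which 31617 symbols (92.9%) matched. Simulated data with known changes were used to test the limma step. The transporters and the lists were chosen with earlier results of these data known. All 9 transporters are named. Each list names up to 4 called genes per comparison with the largest change and a mean of at least 5 FPKM. A selection of these is printed. Genes of nearest pattern are the 3 nearest among tested genes with a mean of at least 5 FPKM in any of the groups. Alternatives were other rescalings, filters, pseudocounts, models, a replicate block and leaving out each library. Figures were drawn with Python 3.11.15, numpy 2.4.6 and matplotlib 3.10.9.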

Additional observations from a re-analysis of the deposited data

How the results depend on the processing

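SLC6A9 kept its direction and call in all 3 comparisons under all 20 alternatives, between 2.03 and 2.65 on the log2 scale for OC against DMSO+EV, and SLC1A5 kept its call against DMSO+EV in both treated groups. Scaling to equal totals left 5 of 8 transporters called between OL+EV and DMSO+EV, 1 higher and 4 lower, and ended 3 falls between OC and OL+EV, where 4 were then higher and 0 lower. It moved the median log2 fold change of all genes to 0.25 between OC and DMSO+EV, 0.10 between OL+EV and DMSO+EV and 0.14 between OC and OL+EV, and the share of called genes that were higher to 67%, 60.5% and 65.3%, against 48%, 55.2% and 42.7% without it. Between OC and OL+EV, SLC3A2 was at -0.096 under quantile normalization and between -0.126 and 0.068 when each library was left out, with -0.047 without OL+EV replicate 3. SLC1A5 in that comparison was at 0.015 under median-of-ratios scaling and 0.20 with equal totals; the cause was not tested. SLC7A1 lost its call there also under median-of-ratios scaling, equal totals, equal totals without mitochondrial genes, a pseudocount of 5 and no filter. The log2 ratio of SLC1A5 to SLC1A4 with a pseudocount of 1 differed by -0.88 between OC and DMSO+EV, -0.69 between OL+EV and DMSO+EV and -0.19 between OC and OL+EV, against -0.01, 0.91 and -0.92 without it, since the level of SLC1A4 is far below the pseudocount. The replicate block changed no transporter's call and gave 9204, 6838 and 7963 called genes in those comparisons. Same-numbered libraries did not deviate together (r of -0.315 to 0.036, against -0.155 to 0.329 for unlike numbers). These deviations are from means of 3 libraries, so they cannot exclude that same-numbered libraries were handled together. Depth is unknown and sets no stated limit.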
